A study of Mus musculus with 1507 samples.

Results

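Among the transcript models that the study assembled from its own reads in mouse ES cells and their derivatives, 4620 lay in intergenic DNA far from any annotated gene. They were chosen by position alone. A model entered the set if it was assembled rather than taken from GENCODE vM9, had 1 exon, and lay over 10000 bases from the span of every annotated gene on either strand. The set held 10.8% of the 42592 unannotated models and 2.93% of all 157717 transcripts of the merged annotation. The other unannotated models were 19321 of 1 exon inside a gene, 6058 of 1 exon within 10000 bases of a gene and 12593 of 2 or more exons. In the 1000 bases beyond the distance limit, 233 intergenic transcripts had a median level of 0.691 TPM, and in the 1000 bases short of it 232 models left out had 0.470 TPM. TPM, a measure of abundance per length of transcript, add up to the same total in every library, and a level is the mean of the 5 time point means.

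All samples came from 5G6GR cells, a derivative of the feeder-free mouse ES line EB5 that carries a randomly integrated vector for *Gata6* fused to the glucocorticoid receptor domain (Gata6-GR-IRES-Puro). Dexamethasone activates the fusion protein and turns the cells towards primitive endoderm. The time course used RamDA-seq of single cells at 0, 12, 24, 48 and 72 h of dexamethasone. By the study's methods, dexamethasone replaced the blasticidin of the ES cell medium, so the effects of these changes cannot be told apart. The table held 90, 68, 90, 82 and 91 cells, 421 of the 456 that are labelled, and 0 h cells are ES cells without dexamethasone. The cells of a time were counted as 1 sample, so no test between times was run, and time and culture or plate cannot be told apart. The method comparison used RNA of undifferentiated ES cells. There were 3 rdRNA-seq libraries (total RNA depleted of rRNA, 1 µg), 3 paRNA-seq libraries (poly(A)-selected RNA, 1 µg), 3 RamDA-seq libraries and 4 C1-RamDA-seq libraries (both 10 pg of diluted RNA). P-values between methods therefore measure the spread between these libraries, which may be technical.

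RNA polymerase II transcribes much DNA outside annotated genes. Active enhancers give short, unspliced and mostly unadenylated enhancer RNAs, ends of genes give readthrough RNA, and some long noncoding RNAs remain unspliced. Many such RNAs are short-lived, stay in the nucleus and are made in 1 cell type, and RNAs without a poly(A) tail are lost from libraries primed at or selected for the tail. RamDA-seq starts cDNA both at the tail and, with primers that avoid rRNA, all along the molecule, so it can take up both kinds.

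For 3 of the intergenic transcripts, the study designed PCR primers. They are shown because these models carry both directions of change over the time course, TCONS_00054716 and TCONS_00054723 the fall and TCONS_00043940 the rise. The primers were read from the study's primer list and were not placed on the genome here.

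TCONS_00054716 forward: ggctattcaactccgactgcg

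TCONS_00054716 reverse: tctggagccgggttgtcac

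TCONS_00054723 forward: cttgggcagggactctgga

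TCONS_00054723 reverse: gaagggctaggctggacacag

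TCONS_00043940 forward: tttcatggaactggctgtttcag

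TCONS_00043940 reverse: ctggcatgggcttgagagagt

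Few of the models coincide with a gene start that RefSeq has annotated. Of 32851 RefSeq windows of 250 bases before to 50 bases after a gene start (GRCm38.p6), 39 overlapped 45 intergenic transcripts and 12 lay wholly inside 1. The 3 windows printed, of these 12, lie inside groups that moved in opposite directions, 1 that rose and the others that fell. They were chosen after these values were seen. The start of *Gm30228* (chr10:27809667-27809966, minus strand) lies in TCONS_00006771, at 2.69 TPM at 0 h and 7.18 at 72 h. The start of *Gm42211* (chr3:37694886-37695185, minus strand) lies in TCONS_00043356, a model of the plus strand at 1.48 TPM at 0 h and 0.0150 at 72 h. The start of *Gm41563* (chr17:31825104-31825403, plus strand) lies in TCONS_00029657, at 1.44 TPM at 0 h and listed at 0 at 72 h. Capitals mark the GATA motif on either strand, AGATAA and its forms with T as first or G as last letter. GATA factors such as *Gata6* bind letters of this kind.

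Gm30228: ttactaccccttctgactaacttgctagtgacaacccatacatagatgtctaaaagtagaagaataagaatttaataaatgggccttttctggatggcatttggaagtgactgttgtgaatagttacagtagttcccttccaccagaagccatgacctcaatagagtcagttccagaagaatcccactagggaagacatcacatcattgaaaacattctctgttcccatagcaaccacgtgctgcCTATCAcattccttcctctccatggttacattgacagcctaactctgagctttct

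Gm42211: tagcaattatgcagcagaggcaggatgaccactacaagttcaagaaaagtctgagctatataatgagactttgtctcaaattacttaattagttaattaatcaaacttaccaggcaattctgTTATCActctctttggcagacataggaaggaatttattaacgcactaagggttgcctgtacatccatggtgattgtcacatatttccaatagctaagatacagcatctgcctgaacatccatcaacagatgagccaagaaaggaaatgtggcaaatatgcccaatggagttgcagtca

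Gm41563: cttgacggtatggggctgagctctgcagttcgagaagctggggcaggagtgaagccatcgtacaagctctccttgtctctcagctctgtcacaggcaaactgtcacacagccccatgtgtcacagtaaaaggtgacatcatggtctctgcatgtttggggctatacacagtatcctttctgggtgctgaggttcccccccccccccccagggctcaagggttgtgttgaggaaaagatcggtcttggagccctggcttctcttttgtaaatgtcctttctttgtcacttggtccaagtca

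The first and second windows hold 1 such match each, and the third holds none. Over the 39 windows that overlap an intergenic transcript, 18 (46.2%) held a GATA match, against 29.8% of all 32851 windows of that length. The octamer ATGCAAAT stood in 2 of the 39 (5.13%) and in 1.74% of all windows. CACCC, a letter run bound by KLF factors, stood in 56.4% and 57.5%. The poly(A) signal AATAAA stood in 28.2% and 19.6%, and its variant ATTAAA in 17.9% and 13.9%. The windows over intergenic transcripts had a median GC content of 47.7% and 3 CG pairs, and all windows had 52.7% and 7. A match of letters is a description, and the base content differed between the compared sets.

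The models were short. Their lengths ran from 201 to 9956 bases with a median of 736, and 247 were under 300 bases. They were spread over both strands (2345 plus, 2268 minus and 7 without strand) and over all chromosomes, with 473 on chromosome 13 (10.2%), 439 on chromosome 12 (9.50%) and 324 on chromosome 10 (7.01%). The nearest annotated gene was a median of 29286 bases away and at most 878553, and the nearest protein-coding gene a median of 50571. Distances over 100000 bases were found for 714 models. A further 38 models lay on unplaced sequences without any annotated gene.

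Most were present in single cells at a low level. At least 1 cell of the 421 had 0.1 TPM or more of 4607 models, and 13 were seen in none. The median level was 0.599 TPM. A level of at least 1 TPM was reached by 1854 models (40.1%), 10 TPM by 339 and 100 TPM by 48. The level fell with length, from a median of 5.40 TPM for the 254 models of 201 to 300 bases to 1.63 for 943 models of 301 to 500 bases and 0.444 for 2082 of 501 to 1000. It was 0.391 for 1116 models of 1001 to 2000 bases and 0.563 for 225 longer ones. Whether the estimates of the shortest models depend on how Sailfish treats effective length was not tested.

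The models of the highest level were short, too. TCONS_00076026 (chrY:90717595-90717894, plus strand) had 3402 ± 1300 TPM at 0 h (mean ± SD over 90 cells) and 2886 ± 1239 at 72 h (91 cells), and TCONS_00076034 lies near it with 1081 and 981 TPM. TCONS_00027910 on chromosome 16 had 842 TPM at 0 h and 658 at 72 h. TCONS_00049401 (chr4:5005744-5006023, minus strand) fell from 1241 ± 400 to 366 ± 131 TPM, and its highest 72 h cell (765) lay above its lowest 0 h cell (436). TCONS_00054890 and TCONS_00054892, which lie on chromosome 5, fell from 593 to 161 and from 485 to 226. TCONS_00073320, on an unplaced sequence, had 437 and 391.

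Some models overlap the span of a gene in later annotation, introns included. GENCODE vM21 genes overlap 752 of them (16.3%), 619 on the same strand. An exon overlaps 245 (5.30%), 215 on the same strand. RefSeq genes, taken without regard to strand, overlap 1118 (24.2%), of which 604 by a lncRNA gene and 405 by a protein-coding one. Neither set overlaps 3227. The median level was 0.700 TPM for the 1393 models with a later gene and 0.572 for the others.

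Some models lie over copies of genes. Of 57 models that lie over a later 1-exon transcript, 29 lie over a processed pseudogene. Shared 31-base words were sought in the overlap with the pseudogene alone, which made up from 6.45% of the model to all of it. In 18 of the 29, over 50% of the words of the overlap also occur in transcripts of other genes. TCONS_00014431, which lies in full over *Rpl17-ps3*, shared 87.8% of these words with *Rpl17*, which encodes a ribosomal protein. In TCONS_00004924, of 817 bases, the 633 bases over *Gm4739* shared 90.2% with *Hmgb2*, a chromatin protein gene. TCONS_00025832, with a level of 8.67 TPM, is 1455 bases long, and the 490 bases over *Zfp42-ps1* shared 55.4% with *Zfp42* (Rex1), a pluripotency marker. Of the 28 models over other later 1-exon transcripts, 10 likewise had over 50% of the words of the overlap in other genes. Reads of such models cannot be told apart from those of the parent or other gene where the words are shared, and their values are uncertain. Models outside the 57 were not searched.

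The time course moved as its labels say. From 0 h to 72 h the ES cell genes *Pou5f1*, *Sox2* and *Nanog* went from means of 229, 56.2 and 70.7 TPM to 25.7, 0.0910 and 0.548. The endoderm genes *Gata4*, *Sox17* and *Dab2* went from 0.458, 0.0431 and 0.199 to 181, 93.4 and 221. *Gata6* values can include reads of the transgene. Of 9 markers of other lineages, the highest means were 1.38 TPM for *Thy1* (fibroblasts) and 1.35 for *Pax6* (neuroectoderm), both at 0 h, and by 72 h these were 0.0106 and 0.190. *Cdx2* and *Elf5* (trophoblast) had at most 0.519 and 0.469, *T* and *Sox1* 0.199 or below at every time, and *Col3a1* was listed at 0. A cell at 48 h stood apart, with 29093 detected transcripts (next lowest cell 38429, median 55681) and 20.4% of its TPM on the intergenic transcripts (next highest 7.196%). Among the models, 45 had over 50% of their summed TPM in it. The step counts at 48 h and the values of named models that rest on it are given with and without it.

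Total RNA held more of these models than any other library type. At 0.1 TPM or more, an rdRNA-seq library had 3505 ± 57.6 of the 4620 (75.9%, mean ± SD, n = 3), a paRNA-seq library 2968 ± 36.1 (64.2%, n = 3), a RamDA-seq library 2331 ± 68.8 (50.5%, n = 3) and a C1-RamDA-seq library 2248 ± 27.2 (48.7%, n = 4). No rdRNA-seq library overlapped a paRNA-seq library, and no library from 1 µg overlapped one from 10 pg. The models were assembled from convergent read pairs, and of these library types the study's methods give paired-end sequencing only for the 2 made from 1 µg. The order between 1 µg and 10 pg and the choice of models thus cannot be told apart. Unannotated models within 10000 bases of genes were detected at 72.7%, 57.2%, 41.3% and 42.8% in the same order. Spliced unannotated models had 50.5%, 55.99%, 40.6% and 44.6%, so that for these paRNA-seq held more than rdRNA-seq. At 1 TPM or more, the order for intergenic transcripts was another: 1326 ± 101 in rdRNA-seq, 1555 ± 14.2 in paRNA-seq, with 1463 ± 26.9 for RamDA-seq, and 1395 ± 50.4 when run on the C1 (C1-RamDA-seq).

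**Figure D1:**
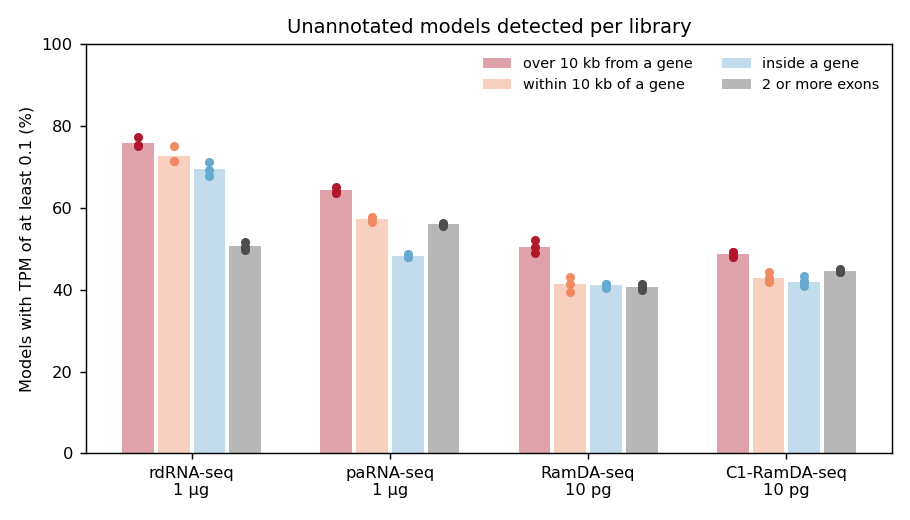
Percent of intergenic transcripts at 0.1 TPM or more in each of the 13 libraries, by method. The other unannotated models, near genes, inside genes or spliced, are shown in the same way. For the intergenic transcripts, every rdRNA-seq library lies above every paRNA-seq library, and all of these lie above the libraries from 10 pg. For spliced models, every paRNA-seq library lies above every rdRNA-seq library.

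As a share of TPM, the intergenic transcripts held 3.92 ± 0.0540% in paRNA-seq, 2.78 ± 0.164% in C1-RamDA-seq, 2.73 ± 0.328% in rdRNA-seq and 2.16 ± 0.0338% in RamDA-seq. All 3 rdRNA-seq libraries detected 2640 models, all 3 paRNA-seq libraries 2105, all 3 RamDA-seq libraries 1278 and all 4 C1-RamDA-seq libraries 1066. All 13 libraries shared 590 models, and 137 were in none of them. Of these 137, 62 had a level of at least 0.1 TPM in single cells.

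Detection from 10 pg rose with the level in 1 µg. Of 1081 models with 0.1 to 0.3 TPM in rdRNA-seq, 8.97% were in all 3 RamDA-seq libraries and 6.66% in all 4 C1-RamDA-seq libraries. These shares rose in each band of level, to 83.9% and 77.02% of the 248 models at 10 TPM or more. In any 1 or more of the RamDA-seq libraries, 64.2% of the lowest band and 95.6% of the highest band were seen. Models in every rdRNA-seq library and no paRNA-seq library numbered 227, and 15 of these were in all RamDA-seq libraries and 14 in all C1-RamDA-seq libraries. The reverse, every paRNA-seq library and no rdRNA-seq library, held for 50. These counts were not made over all transcripts. An rdRNA-seq library also detected more of the models in general, 75.9% against 64.2% in paRNA-seq.

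Against poly(A)-selected RNA, total RNA had higher values of some intergenic transcripts and lower values of more. Of 4004 tested (limma on log2(TPM + 0.1), mean TPM of at least 0.1, Benjamini-Hochberg adjusted p under 0.05 over all 90723 transcripts), 263 were higher in rdRNA-seq (6.57%, background over all transcripts 3.99%) and 496 were lower (12.4%, background 22.8%). The median log2 difference over all transcripts was −0.86, that of the intergenic transcripts −0.15, and that of annotated protein-coding transcripts −1.21. Among the other unannotated models of 1 exon, those near genes had a median of −0.06 with 8.13% higher, and those inside genes 0.23 with 10.2% higher, so that the intergenic transcripts lay below both. With values scaled to the same upper quartile, the median over all transcripts was 0.57 and the split turned to 645 higher and 53 lower. Shares of all transcripts called under this scaling are not given here, so the turn cannot be told apart from a shift of all transcripts.

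**Figure D2:**
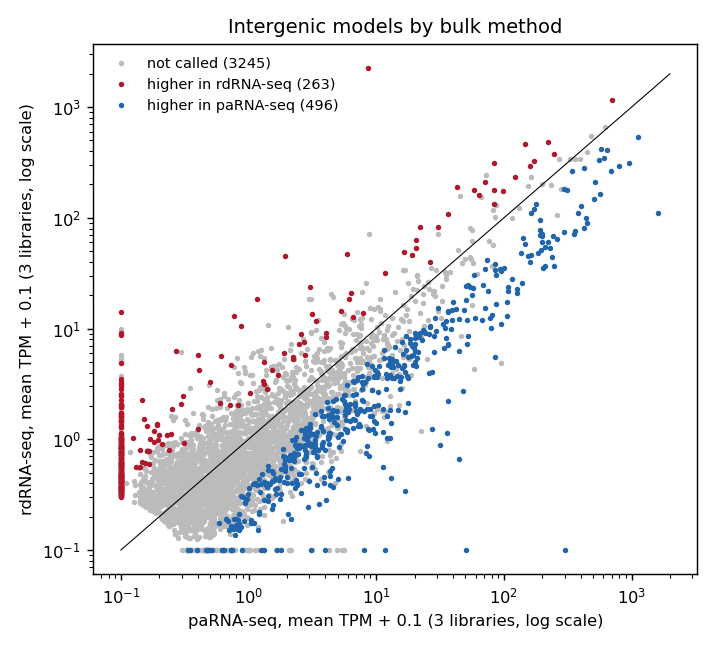
Mean TPM of each intergenic transcript in rdRNA-seq against paRNA-seq, both axes on a log scale after adding 0.1 TPM. Colours mark the 263 transcripts called higher and the 496 called lower by limma, and most points lie along the diagonal.

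Large differences in both directions belonged to short models that some libraries listed at or near 0. TCONS_00007935 (chr10:96077577-96077794, minus strand) had 2144, 2018 and 2589 TPM in rdRNA-seq against 14.9, 10.5 and 0 in paRNA-seq, a log2 difference of 9.80 ± 1.89 (SE, adjusted p = 0.0121). It had 6.44, 22.7 and 12.6 in RamDA-seq, with 0, 44.1, 9.90 and 5.46 in C1-RamDA-seq, so that of the 13 libraries only those of rdRNA-seq had it above 44.1. In single cells its mean was 362 TPM at 0 h and 480 at 72 h. TCONS_00014047 had 7.58, 5.35 and 14.1 TPM in rdRNA-seq and was listed at 0 in every paRNA-seq library (adjusted p = 4.18e-04). TCONS_00045387 had 22.99, 2.01 and 17.03 and was likewise listed at 0 (adjusted p = 0.00387). TCONS_00013694 had 40.5, 43.3 and 50.5 TPM in rdRNA-seq against 5.21e-04, 0.848 and 4.60 in paRNA-seq (log2 difference 5.87 ± 1.31, adjusted p = 0.0208). The rdRNA-seq and paRNA-seq libraries did not overlap for any of these 4 models, which the naming rule required. The first and last calls were lost on leaving out 1 library, that of TCONS_00007935 without rdRNA-seq replicate 3 (adjusted p = 0.0504) and that of TCONS_00013694 without any rdRNA-seq replicate or paRNA-seq replicate 2 (0.0595 to 0.0759).

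Some models showed the reverse. TCONS_00011031 (chr11:6758422-6758702, minus strand) was listed at 0 in all rdRNA-seq libraries and had 303, 316 and 282 TPM in paRNA-seq (adjusted p = 4.30e-06). It had 152, 125 and 160 TPM in RamDA-seq, with 140, 120, 105 and 77.5 in C1-RamDA-seq, and its mean in single cells went from 203 TPM at 0 h to 5.04 at 72 h. TCONS_00055013 had 58.7, 54.9 and 37.2 TPM in paRNA-seq and was listed at 0 in every other library (adjusted p = 5.65e-05). TCONS_00002834 had 37.8, 45.4 and 50.9 in paRNA-seq and 0, 0 and 1.71 in rdRNA-seq (log2 difference −7.40 ± 1.15, adjusted p = 0.00534). TCONS_00044810 had 28.3, 34.5 and 45.3 against 3.15, 0 and 0 (−6.80 ± 1.38, adjusted p = 0.0146), a call that was lost without rdRNA-seq replicates 2 or 3 or paRNA-seq replicates 2 or 3 (0.0505 to 0.0539).

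From 10 pg, RamDA-seq gave values that mostly did not pass the test against rdRNA-seq. Of 3878 intergenic transcripts tested, 37 were higher (0.954%, background 1.64%) and 86 lower (2.22%, background 1.76%). Their median log2 difference was −0.39 and that of all transcripts −0.04. In place of 123 calls there were 24, 43 and 45 without rdRNA-seq replicate 1, 2 or 3. With the same upper quartile the split was 15 higher and 521 lower with a median over all of −1.15. In C1-RamDA-seq, 152 of 3863 were higher than in rdRNA-seq (3.94%, background 7.98%) and 256 were lower (6.63%, background 3.79%), at a median of −0.44 against 0.23 for all. With the same upper quartile this split was 35 and 1010, with a median over all of −1.22. For these scaled splits, too, the shares of all transcripts called are not given here.

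Named examples in this direction were again at or near 0 from 10 pg. TCONS_00069747 had 158, 115 and 190 TPM in rdRNA-seq, 0.0177, 6.77 and 0 in RamDA-seq and at most 0.0467 in C1-RamDA-seq (adjusted p = 0.0359 and 5.48e-06). TCONS_00037059 had 178, 195 and 156 TPM in rdRNA-seq, against 104, 104 and 84.5 in paRNA-seq, while RamDA-seq gave 3.08, 0 and 0 (adjusted p = 0.0144). TCONS_00038326 had 148, 124 and 196 TPM in rdRNA-seq, and 0, 0, 0.0816 and 0 in C1-RamDA-seq (adjusted p = 7.01e-06). Against RamDA-seq, the first call was lost without any rdRNA-seq replicate or RamDA-seq replicates 1 or 3 (0.0872 to 0.149), and the second without any rdRNA-seq replicate or RamDA-seq replicate 2 (0.0511 to 0.109). Their single-cell means at 0 h were 0.673, 33.1 and 57.5 TPM, so the last of them was seen by RamDA-seq of cells, in 82 of 90.

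Higher values from 10 pg were seen as well. TCONS_00065299 had 39.6, 70.6 and 29.1 TPM in RamDA-seq, with 83.4, 90.9, 57.6 and 14.5 in C1-RamDA-seq against 0, 3.29 and 0 in rdRNA-seq (adjusted p = 0.0427 and 0.00813), while its paRNA-seq libraries ranged from 0 to 55.3. TCONS_00023669 had 13.5, 5.98 and 10.9 in RamDA-seq against 0, 0.586 and 0 (adjusted p = 0.0218) and was listed at 0 in paRNA-seq. Both RamDA-seq calls were lost without rdRNA-seq replicates 1 or 3 or any RamDA-seq replicate (0.0921 to 0.151 and 0.0514 to 0.114). TCONS_00074885 had 31.4, 43.2, 24.7 and 6.27 TPM in C1-RamDA-seq and was listed at 0 in all libraries from 1 µg (adjusted p = 3.09e-04).

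The RamDA-seq protocols, on plates and on the C1 system, were compared at 10 pg after the data had been seen. Of 3647 intergenic transcripts tested, 61 were higher in C1-RamDA-seq (1.67%, background 2.41%) and 38 lower (1.04%, background 0.484%). The medians were −0.10 for the intergenic transcripts and 0.40 for all transcripts. With the same upper quartile the split was 35 higher and 53 lower, with a median over all of 0.051. The number called fell to between 50 and 62 on leaving out any RamDA-seq replicate or C1-RamDA-seq replicates 2 or 3. TCONS_00075244 had 98.5, 163, 94.6 and 118 TPM in C1-RamDA-seq and at most 2.00e-04 in RamDA-seq (adjusted p = 2.19e-07). TCONS_00040171 had 77.2, 29.7, 90.8 and 55.8 against at most 0.00636 (adjusted p = 4.65e-06). Lower in C1-RamDA-seq were TCONS_00045410, at 0, 0.757, 0 and 0 TPM against 47.6, 63.9 and 98.1 (log2 difference −8.61 ± 0.96, adjusted p = 2.43e-04), and TCONS_00008069, listed at 0 against 7.27, 15.7 and 6.28 (adjusted p = 0.00537).

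Of the models with primers, TCONS_00054723 had 2.30, 3.16 and 3.67 TPM in rdRNA-seq against 0.851, 1.42 and 1.41 in paRNA-seq (log2 difference 1.25 ± 0.34, adjusted p = 0.0419), a call lost on leaving out any 1 of these 6 libraries (0.0543 to 0.110). It had 19.1, 16.5, 14.5 and 9.06 TPM in C1-RamDA-seq, above rdRNA-seq (2.22 ± 0.37, adjusted p = 0.00671), and 6.72, 3.77 and 8.07 in RamDA-seq. TCONS_00054716 had 1.06 to 1.34 TPM in rdRNA-seq against 0.825 to 1.45 in paRNA-seq, ranges that overlap. TCONS_00043940 had 0.443, 0.647 and 1.00 in rdRNA-seq and was listed at 0 in every RamDA-seq library and in 3 of 4 C1-RamDA-seq libraries, although RamDA-seq of single ES cells had it at 0.1 TPM or more in 77 of 90.

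Over the time course the intergenic transcripts became fewer. A cell had 2384 ± 231 of them at 0 h (mean ± SD over cells, 0.1 TPM or more), 2110 ± 202 at 12 h, 1978 ± 189 at 24 h, 1789 ± 157 at 48 h and 1678 ± 108 at 72 h. The cells of 0 h ranged from 1207 to 2888 and those of 72 h from 1133 to 1974, so the ranges overlapped. All detected transcripts per cell went from 57080 ± 3340 to 52802 ± 2299. The share of TPM on intergenic transcripts was 3.56 ± 0.612%, 3.25 ± 0.895%, 2.90 ± 0.559%, 2.43 ± 2.10% and 2.10 ± 0.380%, and at 48 h it was 2.21 ± 0.625% without the cell that stood apart. The median model was detected in 50% of cells at 0 h and in 25.3% at 72 h.

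Lower means at 72 h were more frequent than higher ones. With a ratio of mean TPM + 0.1 of at least 2, 390 intergenic transcripts were higher at 72 h than at 0 h (8.44%, background over all transcripts 11%) and 1966 were lower (42.6%, background 13.6%). With 1 TPM added in place of 0.1, the counts were 213 (4.61%, background 4.42%) and 765 (16.6%, background 4.37%). Among the 1854 with a level of at least 1 TPM, 261 were higher (14.1%, background 17.7%) and 586 were lower (31.6%, background 14.4%). For unannotated models within 10000 bases of genes at 1 TPM or more, 8.84% were higher and 22.3% lower, and for those inside genes 23.3% and 16.3%. Annotated lincRNA transcripts at that level had 7.30% and 20.95%. By step, 83 intergenic transcripts were higher at 12 h than at 0 h (1.797%, background 4.2%) and 854 lower (18.5%, background 6.4%). From 12 to 24 h, 197 were higher (4.26%, background 5.37%) and 527 lower (11.4%, background 3.19%). From 24 to 48 h, 229 were higher (4.96%, background 3.43%) and 513 lower (11.1%, background 4.91%). Without the 48 h cell that stood apart, these were 144 (3.12%, with 3.11% of all transcripts) and 531, so that the share of higher models was that of all transcripts. From 48 to 72 h, 44 were higher (0.952%, background 2.03%) and 436 lower (9.44%, background 2.91%), and without that cell 45 and 326. The ratio is a description of 1 culture per time, with no test.

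The models often lay in rows. When models less than 10000 bases apart were joined, they formed 2012 groups, 1231 of a single model and 218 of 5 or more, which held 1930 models. Neighbouring models may be pieces of 1 long RNA, so they are not independent. For a group, the level is the mean TPM weighted by model length. Of the 218, 9 (4.13%) were higher at 72 h and 91 (41.7%) were lower. In 42 of them every model was lower, in 4 every model was higher, and in 4 there were models of both kinds.

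Among groups of 10 or more models, the deepest fall was on chromosome 5, between *Nkx1-1*, a homeobox gene, and *Fam53a*. This group (chr5:33475053-33535865) held 18 models on the minus strand, among them TCONS_00054716 and TCONS_00054723, and lay 41077 bases from *Nkx1-1*. Its level was 8.39 ± 4.02 TPM at 0 h, then 1.86 ± 1.71, 0.280 ± 0.411, 0.0645 ± 0.108 and 0.0422 ± 0.0246. Cells of 0 h ranged from 0.0965 to 28.2 with a median of 7.68, and those of 72 h from 0.00531 to 0.125. The group reached 0.1 TPM in 89 of 90 cells at 0 h and 4 of 91 at 72 h. All 18 models were lower, by log2 ratios of −8.78 to −4.67 with a median of −6.05. Neither flanking gene moved by the 2-fold rule, *Fam53a* from 6.93 ± 3.88 to 7.10 ± 3.50 TPM and *Nkx1-1* listed at a mean of 0 at both times.

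Single models of this group were nearly at 0 by 72 h. TCONS_00054721 had 49.003 ± 26.8 TPM at 0 h (cells 0 to 207, median 45.3) and 0.0116 ± 0.111 at 72 h, with 1 of 91 cells at 0.1 TPM or more. TCONS_00054723 went from 16.2 ± 8.09 to 0.00658 ± 0.0627. TCONS_00054716 had 6.59 ± 3.80 TPM at 0 h, detected in 89 of 90 cells, and at 72 h it was listed at 0 in all 91. Between pairs of the 18 models, the median rank correlation over the 90 cells of 0 h was 0.67. The values of a cell share its library and depth.

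**Figure D3:**
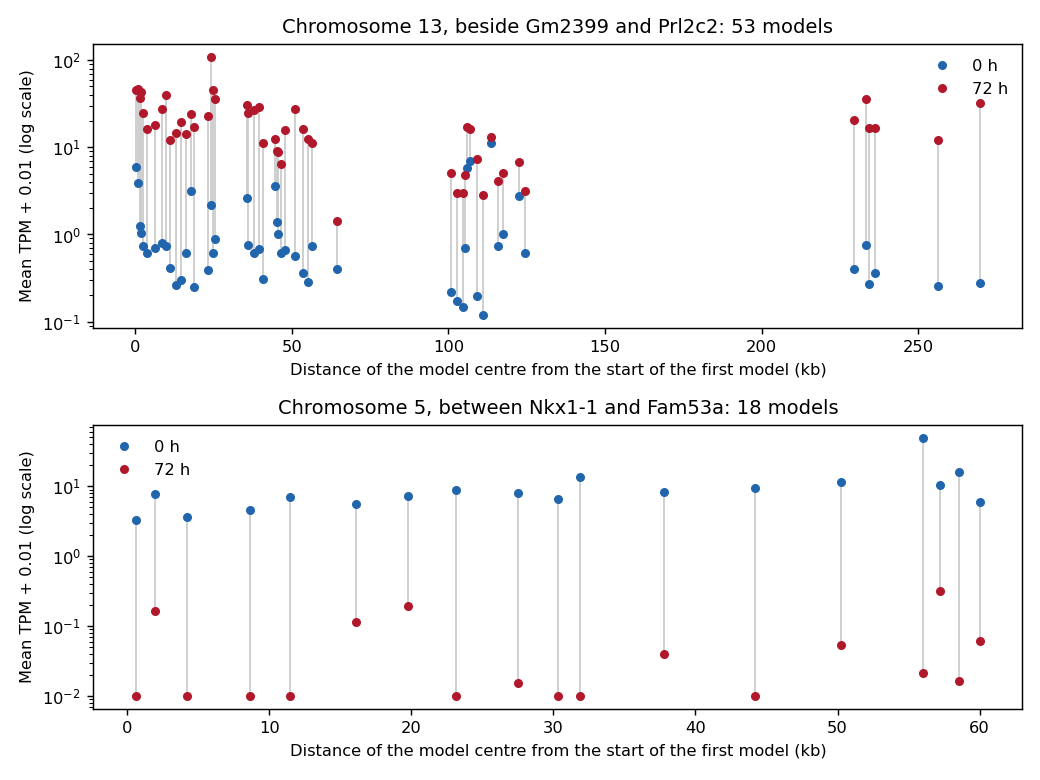
Mean TPM per model at 0 h and 72 h along the chromosome 5 group between *Nkx1-1* and *Fam53a* and the chromosome 13 region beside *Gm2399* and *Prl2c2*. Positions are distances in kilobases from the start of the first model, and TPM are on a log scale after adding a small constant. All 18 models of the first fell and 52 of 53 of the second rose.

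The largest group held 54 models on the minus strand of chromosome 2 (chr2:63805375-63910234), 61273 bases from *Fign*, which encodes a microtubule-severing protein. Its level went from 2.16 ± 2.00 TPM at 0 h to 0.443 ± 0.514 at 12 h and 0.164 ± 0.0630 at 72 h, and 51 of 54 models were lower at 72 h. Cells of 0 h were widely spread, from 0.0925 to 10.7 TPM with a median of 1.47. The median rank correlation over these cells was 0.75 between the 50 models detected in at least 50% of them. *Fign* itself had 0.528 ± 0.797 and 0.775 ± 1.33 TPM.

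Further groups, chosen after their values were seen, fell with every model lower. A group beside *Zfp202*, which encodes a zinc finger protein, on chromosome 9 (7 models, chr9:40224372-40238318) had 16.6 ± 7.56, 5.33 ± 4.08, 1.29 ± 2.00, 0.0369 ± 0.241 and 0.00369 ± 0.0352 TPM. The 4 models of it named by the rule, TCONS_00071921, TCONS_00071922, TCONS_00071925 and TCONS_00071926, were listed at 0 in all 72 h cells. *Zfp202* went from 5.10 ± 2.26 to 1.34 ± 0.979 TPM, and its level followed that of the group over 0 h cells with a rank correlation of 0.73. This group also had 13.3 ± 0.979 TPM in RamDA-seq libraries and 2.03 ± 0.467 in rdRNA-seq. A group on chromosome 13 near *Eef1e1* (20 models) went from 1.77 ± 1.72 to 0.145 ± 0.0646 TPM, whereas *Eef1e1*, a translation factor gene, went from 13.7 to 21.5. A group 10519 bases from *Trpm3*, an ion channel gene on chromosome 19 (15 models), had 2.68 ± 1.85 and 0.170 ± 0.128 TPM. The group that holds the *Gm42211* window printed above (15 models, chr3:37676306-37697321) had 2.20 ± 1.99, 2.76 ± 2.58, 1.01 ± 1.72, 0.137 ± 0.658 and 0.0915 ± 0.272 TPM.

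Single short models of high level also fell. TCONS_00050720 (chr4:124358191-124358468, minus strand) had 847 ± 304, 647, 221, 36.7 and 5.20 ± 9.53 TPM from 0 to 72 h. TCONS_00000096 on chromosome 1 went from 465 ± 160 to 1.90 ± 5.11 TPM, and 20 of 91 cells still had 0.1 TPM or more. For both, the lowest 0 h cell (292 and 166 TPM) lay above the highest 72 h cell (56.8 and 29.8). TCONS_00006586 fell from 26.8 ± 15.9 to 0.0130 ± 0.116 TPM. TCONS_00019951 had 19.2 ± 65.99 TPM at 0 h, from 14 of 90 cells only.

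Rises were fewer. All 8 models that the naming rule picked for their rise lie in 1 region of chromosome 13, beside *Gm2399* and the *Prl2c2* gene. *Prl2c2* encodes a proliferin, a hormone of the prolactin family. The region held 53 models in 5 groups, 52 of them higher at 72 h, with log2 ratios of 0.22 to 6.45 and a median of 4.61. Its largest group (34 models on the plus strand, chr13:12713551-12778149) had 0.8295 ± 0.625 TPM at 0 h, 1.10 ± 0.806 at 12 h, 3.26 ± 3.06 at 24 h, 11.3 ± 9.88 at 48 h and 20.4 ± 14.9 at 72 h. Cells of 72 h ranged from 0.373 to 72.3 TPM (median 17.3) and those of 0 h from 0.119 to 3.74, so the ranges overlapped. All 34 models were higher.

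The genes beside this region rose over the same times. *Gm2399*, 10962 bases from the group, had 7.97 ± 11.1 TPM at 0 h and 95.4 ± 63.4 at 72 h. *Prl2c3* had 0.0649 and 5.05 TPM, and *Prl2c2* had 0.0643 and 1.09. *Prl2c2* and *Prl2c3* belong to a multigene family. Whether reads are shared among these genes, or with the models of the region, was not tested, so these values are uncertain. Among 72 h cells the group followed *Gm2399* with a rank correlation of 0.75, and the models followed each other with a median of 0.82 (33 models, 91 cells). TCONS_00016877 had 2.15 ± 3.79 TPM in 31 of 90 cells at 0 h and 109 ± 86.3 in 90 of 91 cells at 72 h. TCONS_00016934 had 0.267 ± 1.17 and 31.95 ± 25.9, and it was listed at 0 in all 13 libraries of ES cell RNA.

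**Figure D4:**
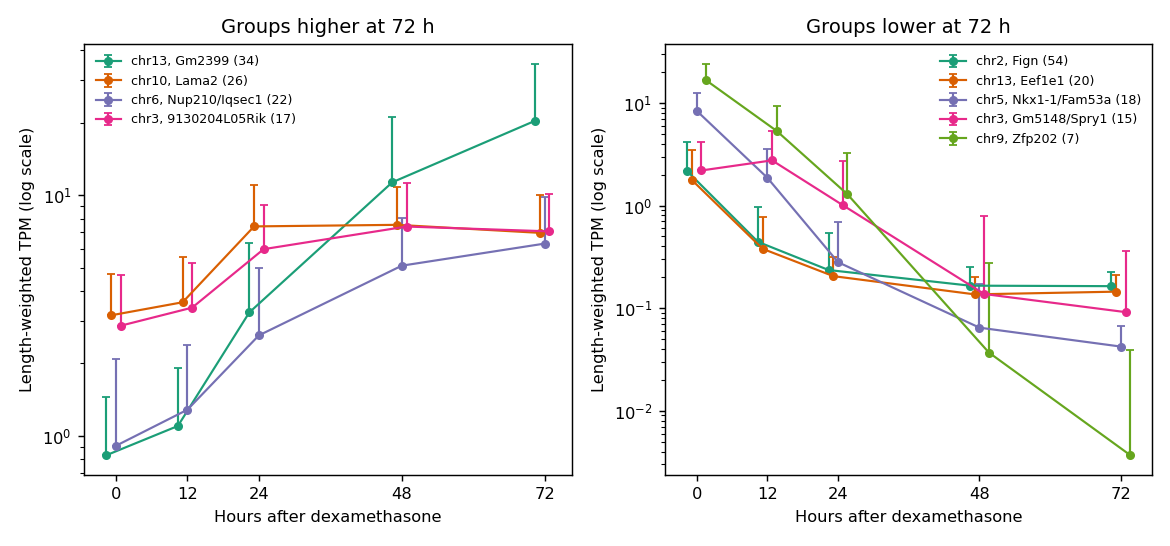
Length-weighted mean TPM of selected groups of neighbouring intergenic transcripts at each time after dexamethasone, with the SD over cells. The chromosome 5 group falls from 8.39 to 0.0422 TPM, and the largest chromosome 13 group rises from 0.8295 to 20.4.

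Other groups, again chosen after their values were seen, rose less. On chromosome 6, 22 models on the minus strand (chr6:90935389-90987786) rose together from 0.908 ± 1.17 to 6.29 ± 3.57 TPM, all 22 by log2 ratios of 2.18 to 3.09. The nearest protein-coding gene in vM9, *Nup210* (a nuclear pore protein), fell from 29.8 ± 12.7 to 0.245 ± 0.703 TPM, while *Iqsec1*, whose RefSeq gene overlaps the group, went from 8.95 ± 4.90 to 40.8 ± 20.6. The group that holds the *Gm30228* window printed above (26 models, chr10:27780948-27826691) went from 3.17 ± 1.55 to 6.97 ± 3.05 TPM with 19 models higher, and most of the change lay between 12 h (3.59) and 24 h (7.42). Its nearest protein-coding gene, *Lama2*, a laminin chain gene 161190 bases away, stayed at means of 0.450 TPM or below. TCONS_00043940, the model with primers that rose, belongs to a group of 17 on chromosome 3. That group went from 2.87 ± 1.78 to 7.07 ± 3.06 TPM, and TCONS_00043940 itself from 2.61 ± 2.09 to 6.25 ± 3.34.

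Some models had their highest mean between the ends of the course. The naming rule took 4 models for a 12 h or 24 h mean above both ends. Of these, TCONS_00023300 and TCONS_00017906 were highest at 48 h with 6.24 and 5.94 TPM. Without the 1 cell that stood apart, their 48 h means were 0.0777 and 0.115. TCONS_00013998 and TCONS_00023393 were highest at 12 h with 5.20 and 5.60 TPM.

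The direction of intergenic transcripts was compared with that of the nearest protein-coding gene where both had a level of at least 1 TPM. Within 25000 bases (329 models beside 187 genes), 43 models were higher at 72 h and 94 lower. The gene was higher beside 29 of the 43 and lower beside 1, and it was lower beside 46 of the 94 and higher beside 5. The rank correlation of the log2 ratios was 0.52 across these models, which is that of unannotated 1-exon models within 10000 bases of a gene (0.52, 956 models). It was 0.27 at 25000 to 50000 bases (251 models), −0.0012 at 50000 to 100000 bases (168 models) and −0.011 beyond 100000 bases (255 models). Several models share a gene and lie in 1 group, and all are from the same cells, so these are descriptions without a p-value.

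**Figure D5:**
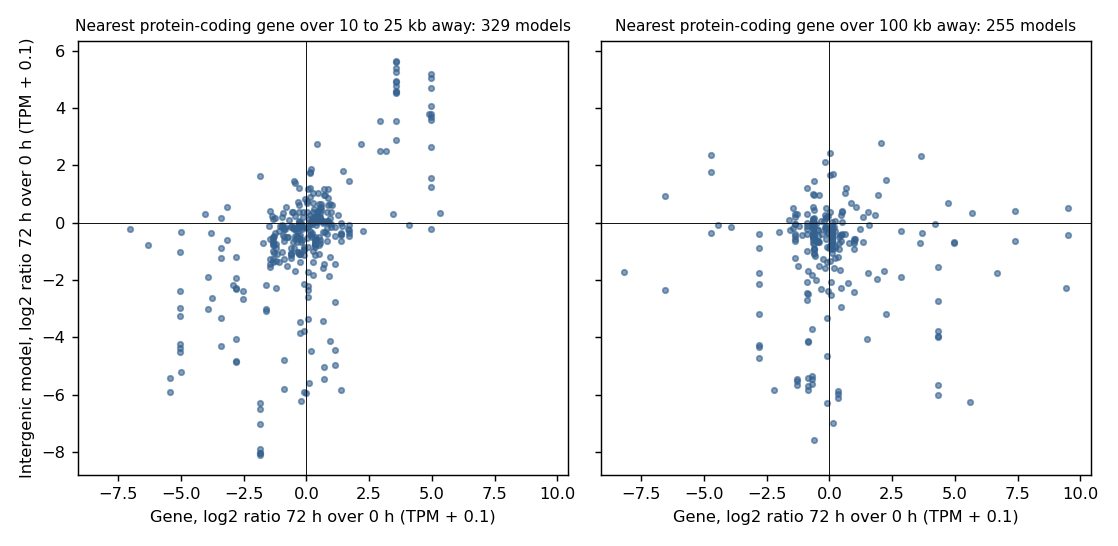
Log2 ratio of 72 h over 0 h of each intergenic transcript against that of its nearest protein-coding gene, for distances up to 25000 bases and over 100000 bases, with both levels at least 1 TPM. The points lean along the diagonal in the first panel, with a rank correlation of 0.52, and not in the second, with −0.011.

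Some genes of known role in these cell states had intergenic transcripts as neighbours. Of 44 listed pluripotency genes, 16 were the nearest protein-coding gene of 47 intergenic transcripts, of which 18 were lower at 72 h (38.3%, 14 with the gene also lower) and 0 were higher. Of 39 listed endoderm genes, 9 were nearest to 29 models, 2 higher and 14 lower (48.3%), with the gene higher beside all 14. Over all 4582 with a nearest protein-coding gene, 42.7% were lower. At a level of at least 0.5 TPM, 5 of 10 models near pluripotency genes were lower, 1 of them with the gene also lower, and 4 of 10 near endoderm genes, against 35.3% of 2465. The shares over both lists lie near that of all intergenic transcripts. The lists were drawn up with earlier results of these data known.

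Near endoderm genes, 2 models rose. TCONS_00032662 (chr18:11013667-11018996, plus strand), 33514 bases from *Gata6*, had 0.204 ± 0.144, 1.30, 2.95, 2.72 and 3.00 ± 1.99 TPM and was detected in 69 of 90 cells at 0 h and in all 91 at 72 h. TCONS_00032663, directly beside it, went from 0.468 ± 0.375 to 1.55 ± 1.21. *Gata6* went from 9.27 ± 4.36 to 99.2 ± 28.2 TPM. The group of 15 models nearest to *Dab2*, an endocytic adaptor gene, but 257036 bases from it, went the other way, from 1.62 ± 1.09 to 0.721 ± 0.308 TPM, while *Dab2* rose.

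Near pluripotency genes, several models differed from their gene in the size of change. By the 2-fold rule, 0 of the 47 models moved in the direction opposite to that of the gene. The 7 models beside *Pou5f1*, the Oct4 gene, had 3.60 ± 1.82 TPM at 0 h and 3.35 ± 1.56 at 72 h, while *Pou5f1* fell from 229 ± 45.4 to 25.7 ± 38.8. A group of 5 beside *Prdm14*, a regulator of naive pluripotency, went from 0.512 ± 0.595 to 0.116 ± 0.144, and *Prdm14* from 7.79 ± 6.12 to a mean listed at 0. TCONS_00021601 and TCONS_00022963, near *Klf5*, went from 1.06 ± 1.28 to 0.0400 ± 0.206 and from 1.05 ± 1.49 to 0.161 ± 0.518, whereas *Klf5* had 118 and 110 TPM. TCONS_00066200, near *Zfp42*, had 3.12 ± 2.63 and 4.41 ± 2.95 TPM while *Zfp42* fell from 105 to 3.72.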

How the data were processed

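RamDA-seq, C1-RamDA-seq, rdRNA-seq and paRNA-seq libraries of 5G6GR cells were analysed from TPM that the authors deposited for merged transcript models. The authors mapped reads to mm10 with HISAT2 2.0.1, assembled models with Cufflinks 2.2.1, kept those in set class codes, removed those of 200 bases or less or near tRNA, rRNA or pseudogenes, and merged them with GENCODE vM9. They estimated TPM with Sailfish 0.9.2 without strand. For the 10 pg libraries the paper states that reads were first brought to the same number. For the 1 µg libraries it does not state this. Overlapping transcripts share reads. TPM carry no depth, so the depth per value is unknown.

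Members, groups and nearest genes were computed from the models with Python 3.11.15, pandas 2.3.3, numpy 2.4.6 and scipy 1.17.1, and figures with matplotlib 3.10.9. Later genes came from GENCODE vM21 and RefSeq on GRCm38.p6. Libraries were compared with limma 3.58.1 in R 4.3.3 on log2(TPM + 0.1), filter 0.1 mean TPM, which was tested on simulated data with 200 changed transcripts. These had at least 10 TPM in rdRNA-seq, and the simulated spread was that of rdRNA-seq libraries. Recovery of changes was thus not tested for lower transcripts or for the spread of 10 pg libraries. Folds on the log2(TPM + 0.1) scale understate changes of low transcripts. Cells of a time were described by mean and SD. Members, gene lists and the rule for named transcripts were chosen with earlier results of these data known. The rule took models with primers, the 10 of highest level, 8 rising and 8 falling most, 4 transient, 4 per direction and method comparison, and those of at least 0.5 TPM nearest to a listed gene. Models named by a method comparison had to have an adjusted p under 0.05 by limma, groups that did not overlap and a mean of at least 1 TPM. Correlations of same-numbered libraries did not show pairing (−0.0059 to 0.0043). The comparison of C1-RamDA-seq with the others was added after the data were seen. SMART-Seq v4 libraries were not analysed here, and 8 columns of other samples were not used.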

Additional observations from a re-analysis of the deposited data

Results flagged for a closer look

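For a library far from the others, 27 sets of 4 C1-RamDA-seq libraries were examined. The sets were named transcripts, the number of models detected and their share of TPM. Such a library was found in 9 sets, all of named transcripts. The limit marks about 1 in 20 sets of normally distributed values, a rate that does not hold here: a set with 1 value and 3 zeros always passes it, and the transcripts were named for large differences between methods. In 5 of them a single library had a value and the others were listed at 0: TCONS_00014047 had 2.83 TPM in it, TCONS_00019225 had 12.6, TCONS_00037059 had 22.1, TCONS_00045410 had 0.757 and TCONS_00038326 had 0.0816. For TCONS_00069747 the high library had 0.0467 TPM, and for TCONS_00038640 it had 39.6 TPM against at most 1.03e-04. For TCONS_00045387 it had 11.8 TPM against 0, 0 and 1.33. The only set of the 9 with values in all libraries was TCONS_00069526, with 74.3 TPM against 12.5, 13.3 and 13.6. The cause was not tested.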

How the results depend on the processing

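Scaling libraries to the same upper quartile moved most method results. It gave 698 intergenic transcripts called in rdRNA-seq against paRNA-seq with the direction turned, against rdRNA-seq 536 with RamDA-seq, 1045 with C1-RamDA-seq, and 88 between the 10 pg methods, turned as well. It also turned 4 named differences, to −0.55 and −0.23 for TCONS_00049401 (C1-RamDA-seq and RamDA-seq, each against rdRNA-seq), 0.69 for TCONS_00038640 and 1.05 for TCONS_00045410 (rdRNA-seq against paRNA-seq). With all 4 groups in 1 fit, 269 were called in rdRNA-seq against paRNA-seq and 192 between the 10 pg methods, the latter with 87 higher and 105 lower. Without the filter, 46 were called between the 10 pg methods. The cause of these moves was not tested.

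With the replicate block, 403, 61, 165 and 34 were called in the 4 comparisons in that order. Same-numbered libraries share only a number, since their deviations did not correlate. Leaving out each library in turn gave 542 to 671, 24 to 120, 289 to 375 and 50 to 69.

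With a pseudocount of 1, 978 transcripts (213 higher, 765 lower) passed the ratio of 2 from 0 h to 72 h. With 0.1 TPM added, 847 of those with a level of at least 1 TPM did, and with 1 TPM added 204 higher and 475 lower. At a TPM of at least 1, 1326, 1463, 1395 and 1555 were detected in rdRNA-seq, RamDA-seq, C1-RamDA-seq and paRNA-seq, and above 0, 3709 in rdRNA-seq, 2294 in C1-RamDA-seq and 3015 in paRNA-seq. The median share of cells at 1 TPM was 30%, 20.6%, 17.2%, 12.2% and 9.89% from 0 h to 72 h. Over 50000 bases from genes there were 1545 transcripts. Of the 1160 alternative values of named transcripts between methods, 927 kept their call and 229 lost it.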
